A study of Mus musculus with 20 samples.

Results

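Growth factors that act through receptor tyrosine kinases switch on the RAS-ERK cascade, and the cascade in turn switches on genes that pass the signal on or hold it back. Of the 45705 genes in the deposited table, 10 mouse genes that are well known as outputs of this kind were followed here, chosen by name. They are Etv1, Etv4 and Etv5, the PEA3 transcription factors of the ETS family, Spry1, Spry2 and Spry4, the Sprouty proteins that restrain signaling from receptor to RAS, Spred1 and Spred2, their membrane-bound relatives that restrain RAF activation, Dusp6, a phosphatase that inactivates ERK in the cytoplasm, and Il17rd, a transmembrane inhibitor of FGF signaling also called Sef. In oligodendrocyte progenitor cells (OPCs) PDGF acts through the receptor PDGFRα to drive division, and FGF receptors serve the same cascade in neural stem cells and astroglia. The transcript level of an output gene is often read as a sign of how active the cascade is, although the protein and the phosphorylation of ERK were not measured in this study.

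The data are RPKM (reads scaled to gene length and to library size) from RNA sequencing of cells sorted from the periventricular zone of P5 Swiss Webster pups. There were 20 libraries, 1 for each of 5 populations in each of 4 batches, and the study pooled each litter, males and females together, so a value describes pooled animals. Neural stem cells (NSC) were sorted as CD133+ LeX+ CD140a- NG2-, BNAP/GRP1 as NG2+ LeX+ CD140a- CD133-, and GRP2/MP3 as NG2+ with none of the other 3 antigens. GRP3 were CD140a+ NG2+ LeX- CD133- and PFMP were CD140a+ NG2+ LeX+ CD133-. Gates other than that of NSC were read from the study's plots of the sort. CD140a is PDGFRα, the product of Pdgfra, and NG2 is the product of Cspg4. The names stand for bipotential neuron-astrocyte progenitors (BNAP), glial-restricted progenitors (GRP), multipotential progenitors (MP) and multipotential progenitors that respond to PDGF and FGF (PFMP). No library was treated with a growth factor or an inhibitor.

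The 5 libraries of batch 3 stood apart by lung genes and by low sums of OPC, neuroblast and astroglial genes. The summed RPKM of 8 genes of lung airway and alveolus was between 1536 and 1734 in those 5 libraries and at most 64.1 in the other 15. The summed RPKM of 10 OPC genes was 3.12 to 17.7 in batch 3, against 909 to 3785 in the GRP3 and 453 to 2932 in the PFMP libraries of the other batches. In NSC, BNAP/GRP1 and GRP2/MP3 outside batch 3 it was at least 24.1. Neuroblast genes summed to 2.83 to 18.3 in batch 3 and to at least 50.9 elsewhere. Genes of astroglia and radial glia summed to 143 to 251 in batch 3 and to at least 336 elsewhere. Microglial genes summed to 1908 to 2148 in batch 3. Outside batch 3, microglial genes summed to 137 to 5860 in BNAP/GRP1 and 805 to 6519 in GRP2/MP3, against 14.4 to 128 in NSC, GRP3 and PFMP, and pericyte genes summed to 457 to 7471 in GRP2/MP3. Ependymal genes summed to 3803 to 16836 in NSC outside batch 3, against at most 543 in the other populations. In batch 3 the ependymal sum was again highest in NSC, at 1624, against at most 7.38 in the other 4 libraries. The file holds no read counts. From the steps between low values, the depth relative to the batch 1 library of BNAP/GRP1 was estimated at 0.0395 (BNAP/GRP1 of batch 4) to 1.41 (BNAP/GRP1 of batch 3). In batch 4, between 37856 and 39689 genes were above 0 in NSC, GRP2/MP3, BNAP/GRP1 and GRP3, and 24102 in PFMP. In the other batches 20116 to 31999 genes were above 0. The part of this in the batch 4 values below was not tested. Results are given with batch 3 and, where they turn on it, without it. In sorted bulk cells, fewer cells of a kind and less RNA per cell cannot be told apart.

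GRP3 had the highest mean RPKM of the 5 populations for 9 of the 10 genes, and NSC the lowest for 7 of the 10. The exception at the top was Dusp6, which was highest in GRP2/MP3. The spread between batches was as wide as these differences: of the 40 gaps between neighbours in the order of the means, all 40 were smaller than the larger of the 2 SDs (n = 4 in each population). The order is therefore a description of means, and how often it occurs over all genes tested was not computed. For Spry2 the GRP3 mean of 292 RPKM rests on the batch 4 library at 1104 RPKM, and the median was 31.4. Within a batch the GRP3 and PFMP libraries were both above the other 3 libraries for 8 of the 10 genes in batch 1 (background over all 27614 genes tested, 17.6%), for 5 in batch 2 (11.4%), for 2 in batch 3 (6.29%) and for 3 in batch 4 (2.78%). Dusp6 and Il17rd were in none of these counts.

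**Figure D1:**
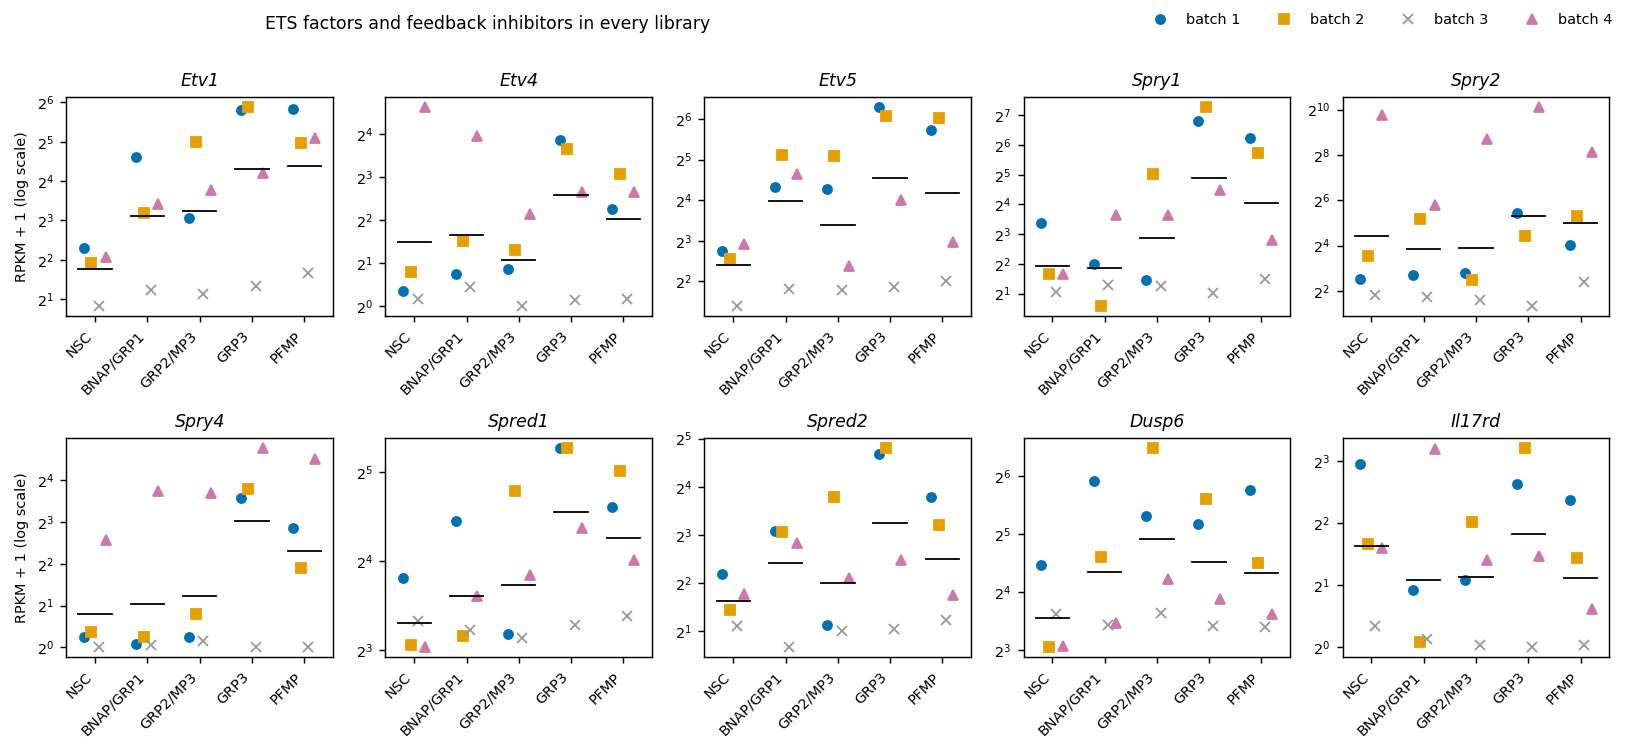
RPKM + 1 on a log scale of each of the 10 genes in each of the 20 libraries, by population, with symbols for the 4 batches and a bar at the mean of log2(RPKM + 1). The GRP3 and PFMP libraries of batches 1 and 2 sit at the top for Etv5 and Spry1, batch 3 sits low for most genes, and Spry2 is highest in batch 4.

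Etv1 (ENSMUSG00000004151, chr12:38779380-38870484, + strand, GRCm38) was the gene with the most regular pattern. In NSC it was at 3.89, 2.81, 0.759 and 3.21 RPKM in batches 1 to 4. In GRP3 it was at 54.9, 58.0, 1.53 and 17.4 RPKM, and in PFMP at 56.1, 30.5, 2.18 and 33.1 RPKM. BNAP/GRP1 libraries were at 23.4, 8.07, 1.34 and 9.66 RPKM and GRP2/MP3 libraries at 7.38, 30.7, 1.18 and 12.7 RPKM. Outside batch 3 none of the 4 progenitors overlapped with NSC. Over all genes tested, the libraries of batches 1, 2 and 4 were all above those of NSC for 4.96% of genes in BNAP/GRP1, 8.81% in GRP3, 3.75% in GRP2/MP3 and 4.58% in PFMP. Each progenitor library was also above the NSC library of its own batch, batch 3 included, where the differences in log2(RPKM + 1) were 0.31 to 0.85. The mean RPKM was 32.9 ± 27.9 in GRP3, 30.5 ± 22.1 in PFMP, 12.99 ± 12.7 in GRP2/MP3, 10.6 ± 9.27 in BNAP/GRP1 and 2.67 ± 1.35 in NSC (SD, n = 4).

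Etv5 (ENSMUSG00000013089, chr16:22381309-22439719, - strand) is a close relative of Etv1 and Etv4. It was at 5.68, 4.85, 1.61 and 6.57 RPKM in NSC, at 77.5, 66.6, 2.65 and 14.9 RPKM in GRP3 and at 51.9, 63.8, 3.01 and 6.81 RPKM in PFMP. All 4 GRP3 and all 4 PFMP libraries were above the NSC library of their batch, but in batch 4 the PFMP library exceeded it by only 0.05 in log2(RPKM + 1). BNAP/GRP1 libraries were at 19.0, 33.6, 2.51 and 24.2 RPKM, also above NSC in each batch. GRP2/MP3 libraries were at 18.4, 33.3, 2.46 and 4.23 RPKM, below NSC in batch 4 alone.

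Etv4 (ENSMUSG00000017724, chr11:101769742-101785371, - strand) had a different order in batch 4 from that in batches 1 and 2. In batches 1 and 2 it was at 13.6 and 11.6 RPKM in GRP3 and at 3.77 and 7.36 in PFMP, against 0.287 and 0.741 in NSC. In batch 4 the NSC library had the highest value of all 20, 23.7 RPKM, above BNAP/GRP1 (14.5), GRP3 (5.35), PFMP (5.27) and GRP2/MP3 (3.43). In batch 3 no library exceeded 0.357 RPKM. The batch 1 and 2 libraries of BNAP/GRP1 (0.683 and 1.86 RPKM) and of GRP2/MP3 (0.817 and 1.48 RPKM) stayed near the NSC libraries. Few reads lay behind these values. The steps between them gave whole reads in 16 of 20 libraries, with 0 to 346 reads for a library. By that estimate NSC held about 3, 18, 6 and 249 reads in batches 1 to 4, and BNAP/GRP1 of batch 4 about 38.

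Spry1 (ENSMUSG00000037211, chr3:37639947-37644598, + strand) spanned the widest range among GRP3 libraries outside Spry2. It was at 111, 154, 1.02 and 21.2 RPKM in GRP3 and at 74.3, 52.0, 1.81 and 5.95 RPKM in PFMP. NSC libraries were at 9.36, 2.17, 1.09 and 2.15 RPKM. BNAP/GRP1 (3.01, 0.479, 1.46 and 11.4 RPKM) lay below NSC in batches 1 and 2, and GRP2/MP3 (1.75, 31.7, 1.41 and 11.6 RPKM) lay below NSC in batch 1 alone. GENCODE annotates Gm42922 on the opposite strand across the start of Spry1, and whether reads were counted by strand is not given in the sources used here.

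Spry4 (ENSMUSG00000024427, chr18:38586247-38601415, - strand) was close to 0 in most libraries of NSC and of the CD140a- progenitors. In batches 1 and 2 it was at 10.8 and 12.9 RPKM in GRP3 and at 6.25 and 2.72 RPKM in PFMP, against 0.194 and 0.293 in NSC, 0.0661 and 0.180 in BNAP/GRP1 and 0.182 and 0.751 in GRP2/MP3. In batch 3 the GRP3 and PFMP libraries were listed at 0 and the other 3 at no more than 0.106 RPKM. In batch 4 all populations were higher, NSC at 4.94, GRP2/MP3 at 11.8, BNAP/GRP1 at 12.3, PFMP at 21.6 and GRP3 at 26.1 RPKM, with the CD140a+ pair again on top. The steps between its values gave whole reads in 20 of 20 libraries (tolerance 0.05 of a read), from 0 to 8375 reads. By that count the batch 1 and 2 libraries of NSC held 12 and 42 reads and those of GRP3 1210 and 976.

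Spry2 (ENSMUSG00000022114, chr14:105891947-105896819, - strand) varied more with batch than with population. Its batch 4 libraries were at 869 (NSC), 54.7 (BNAP/GRP1), 412 (GRP2/MP3), 1104 (GRP3) and 281 RPKM (PFMP). In the other 15 libraries it did not exceed 42.6 RPKM, the GRP3 library of batch 1. In batch 1 GRP3 and PFMP (42.6 and 15.3 RPKM) were above the other 3 libraries (4.82 to 5.91), while in batch 2 BNAP/GRP1 (34.9) lay between PFMP (39.1) and GRP3 (20.2), with NSC at 10.7 and GRP2/MP3 at 4.55 RPKM. In batch 3 the range was 1.48 to 4.33 RPKM.

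Spred1 (ENSMUSG00000027351, chr2:117121374-117182279, + strand) was the steadiest of the 10, with 7.18 to 37.5 RPKM over the 20 libraries. GRP3 libraries were at 37.5, 37.5, 8.75 and 19.7 RPKM, PFMP at 23.4, 31.3, 9.43 and 15.1, and NSC at 13.05, 7.37, 9.02 and 7.18. In batch 3 its values, 7.78 to 9.43 RPKM, were within the range of the NSC libraries of the other batches. Spred2 (ENSMUSG00000045671, chr11:19924375-20024026, + strand) was at 24.7, 26.9, 1.06 and 4.60 RPKM in GRP3, at 12.9, 8.21, 1.34 and 2.37 in PFMP and at 3.53, 1.73, 1.15 and 2.43 in NSC, so the GRP3 excess was carried mainly by batches 1 and 2. BNAP/GRP1 libraries were at 7.52, 7.33, 0.582 and 6.09 RPKM and GRP2/MP3 libraries at 1.19, 12.9, 1.02 and 3.29 RPKM for Spred2.

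Dusp6 (ENSMUSG00000019960, chr10:99263231-99267489, + strand) did not follow the CD140a gate. GRP2/MP3 libraries were at 39.0, 88.8, 11.5 and 17.7 RPKM and BNAP/GRP1 libraries at 59.6, 23.2, 9.79 and 9.99. GRP3 libraries were at 35.3, 47.7, 9.67 and 13.7 RPKM, PFMP libraries at 53.3, 21.7, 9.48 and 11.4, and NSC libraries at 21.2, 7.25, 11.3 and 7.42. The mean of the CD140a+ pair was below that of the CD140a- pair in all 4 batches, with differences in log2(RPKM + 1) of -0.15, -0.49, -0.13 and -0.09, and the fitted difference of -0.22 was within its SE of 0.53. Of all genes tested, 8.21% were lower in the CD140a+ pair in all 4 batches. Outside batch 3 the microglial sums were also higher in the CD140a- pair, while in batch 3 they were at 1908 to 2148 in all libraries. After the mean of each batch was taken out, the r of Dusp6 with the microglial gene Cx3cr1 was 0.482. With the ependymal gene Foxj1 it was -0.667. The part of microglia or of ependymal cells in these values was not tested.

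Il17rd (ENSMUSG00000040717, chr14:27038941-27107286, + strand) was the lowest of the 10 in mean RPKM over the 20 libraries, 2.39. NSC libraries were at 6.74, 2.16, 0.266 and 2.04 RPKM, GRP3 libraries at 5.18, 8.23, 0 and 1.79, and PFMP libraries at 4.15, 1.71, 0.0223 and 0.534. PFMP was below NSC in all 4 batches, as were 12.3% of all genes tested. The highest value outside batches 1 and 2 was 8.13 RPKM in the BNAP/GRP1 library of batch 4, the shallowest library, whose batch 2 counterpart was at 0.0611.

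**Figure D2:**
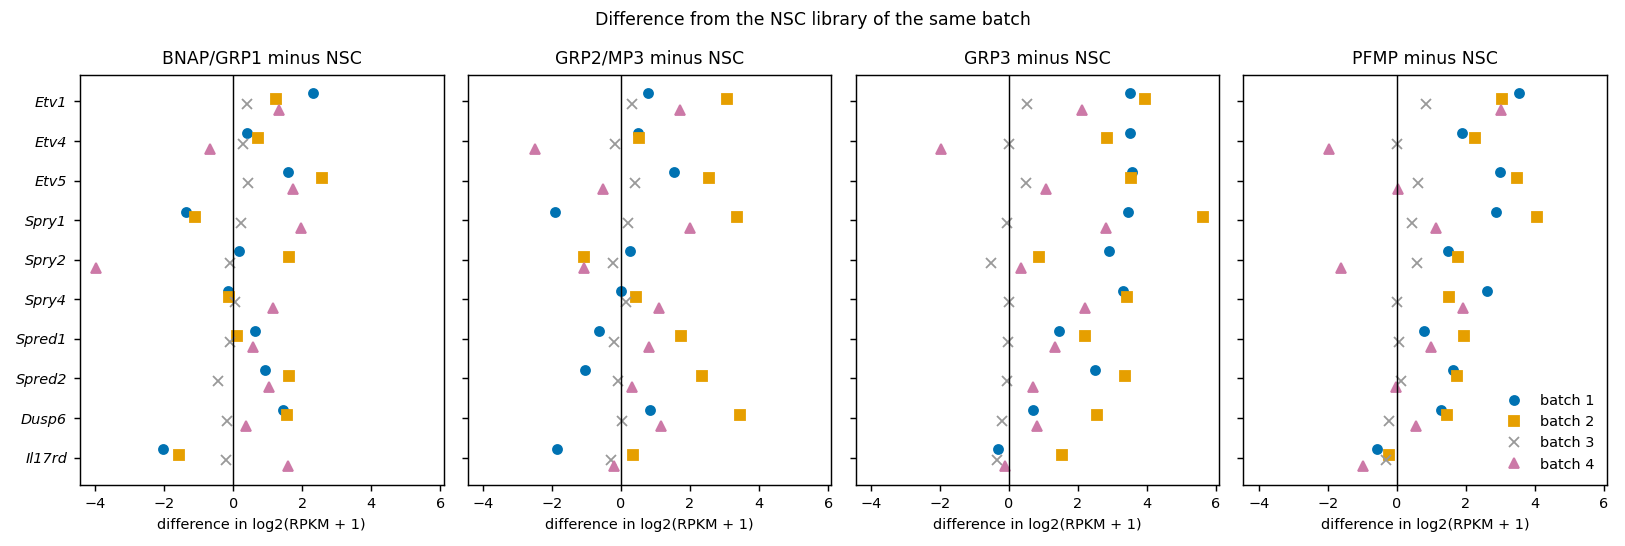
Difference in log2(RPKM + 1) between each progenitor library and the NSC library of its batch, for the 10 genes, with symbols for the 4 batches and a line at 0. Every Etv1 point is to the right of the line, the batch 3 points lie between -0.51 and 0.85, and the batch 4 points of Etv4 are to the left.

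The study compared each progenitor with NSC, and the same question was asked of these genes with limma on log2(RPKM + 1), with p-values adjusted by the Benjamini-Hochberg method over the 27614 genes that reached 1 RPKM in at least 4 libraries. All 10 genes passed that filter, which did not look at populations. The study itself worked from counts with DESeq2. There it called Etv1 higher than in NSC in PFMP, GRP3 and GRP2/MP3, while in BNAP/GRP1 Etv1 narrowly missed the threshold. Etv5 was called higher by the study in GRP3 alone. Both input and method differ here, and why the calls differ was not tested. The 4 comparisons made here share their NSC libraries and are set side by side. Without a batch term, 0 of the 10 genes passed an adjusted p of 0.05 in any of them (background of genes called higher: 0.0109% in GRP3, 0.00362% in PFMP, and 0% both in BNAP/GRP1 and in GRP2/MP3). At an unadjusted p under 0.05 by limma, 3 of the 10 were higher in GRP3 (Etv1, Spry1 and Spred1, background 1.26%), 1 in PFMP (Etv1, 0.793%), and 0 in BNAP/GRP1 (1.87%) and GRP2/MP3 (0.873%).

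The batch number is shared by the 5 libraries of a batch, and with batch in the model as a replicate block the spread was smaller. Etv1 was then higher in GRP3 (log2 fold change 2.53, SE 1.05 without the block, limma adjusted p = 0.644 without and 0.0141 with it) and in PFMP (2.62, SE 1.05, limma adjusted p = 0.544 without and 0.0103 with the block). Etv5 was higher in GRP3 with the block (2.16, SE 1.06, limma adjusted p = 0.921 without and 0.0472 with it). These 2 calls among 10 genes in GRP3 stand beside a background of 0.275% and the 1 call in PFMP beside 0.185%. With the block 0 of the 10 passed in BNAP/GRP1 (0.0652%) and GRP2/MP3 (0.174%). All 4 batches gave Etv1 the same sign in each of the 4 progenitors. The ependymal sums of NSC moved with these calls. After the mean of each batch was taken out, the r with Foxj1, a defining gene of ependymal cells, was -0.718 for Etv1 and -0.662 for Etv5. For Dusp6, which was not called, it was -0.667, and for the remaining genes it lay between -0.463 and 0.328. The part of ependymal cells in these differences was not tested. Without the libraries of batch 3, Etv1 passed with no block in GRP3 (3.20, limma adjusted p = 0.0184, background of genes called higher 0.356%) and PFMP (3.20, 0.0184, background 0.233%). With the block as well, Spry4 (2.97, limma adjusted p = 0.0199), Etv5 (2.72, 0.0489) and Etv1 passed in GRP3, beside a background of 0.604%, and Etv1 passed in PFMP (limma adjusted p = 0.0104), beside 0.454%.

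The other differences of at least 1 in size did not pass over the 20 libraries, with or without the block. In GRP3 they were Spry1 (log2 fold change 2.96, 95% confidence interval 0.34 to 5.57), Spry4 (2.23, -0.15 to 4.61), Spred2 (1.63, -0.18 to 3.44), Spred1 (1.24, 0.06 to 2.42) and Etv4 (1.10, -1.07 to 3.27). With library weights all 5 passed in GRP3, as did Etv1 and Etv5, in a fit that called 9.13% of all genes higher. Spry1 in GRP3 went to 3.96 without batch 3, with a limma adjusted p of 0.101. In PFMP they were Spry1 (2.12, -0.49 to 4.74), Etv5 (1.78, -0.43 to 3.99) and Spry4 (1.51, -0.87 to 3.89). In BNAP/GRP1 they were Etv5 (1.58, -0.63 to 3.79) and Etv1 (1.33, -0.85 to 3.51), and in GRP2/MP3 Etv1 (1.46, -0.72 to 3.65) and Dusp6 (1.37, -0.18 to 2.92). Without the GRP2/MP3 library of batch 2 these last 2 fell to 0.878 and 0.843, without the PFMP library of batch 4 Spry4 in PFMP fell to 0.783, and without the BNAP/GRP1 library of batch 1 Etv1 in BNAP/GRP1 fell to 0.8291. The remaining genes lay between 0.19 and 0.97 in GRP3, between -0.53 and 0.95 in PFMP, between -0.56 and 0.80 in BNAP/GRP1 and between -0.53 and 0.99 in GRP2/MP3. The 95% confidence intervals above, from the fit without the block, are wide enough that a p above the threshold does not show equal levels. With the block, those in GRP3 were 0.89 to 5.03 (Spry1), 0.98 to 3.47 (Spry4) and 0.38 to 2.87 (Spred2). For Spred1 it was 0.29 to 2.19 and for Etv4 -0.38 to 2.57. Those in PFMP were 0.05 to 4.19 (Spry1), 0.60 to 2.97 (Etv5) and 0.27 to 2.76 (Spry4). BNAP/GRP1 had 0.39 to 2.76 (Etv5) and 0.17 to 2.49 (Etv1), and GRP2/MP3 0.30 to 2.62 (Etv1) and 0.37 to 2.36 (Dusp6). No interval is adjusted for the number of genes tested.

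As a group, the 10 genes had a median log2 fold change of 1.43 in GRP3, 0.91 in PFMP, 0.42 in GRP2/MP3 and 0.27 in BNAP/GRP1. The medians over all genes tested were 0.05, -0.20, -0.08 and 0.38, so the BNAP/GRP1 median was under that of all genes. The all-gene medians moved to between 0.04 and 0.09 under quantile normalization. The number of the 10 that were higher than NSC in all 4 batches was 2 in GRP3 (Etv1 and Etv5, background 8.31%), 4 in PFMP (Etv1, Etv5, Spry1 and Spred1, 5.75%), 2 in BNAP/GRP1 (Etv1 and Etv5, 9.35%) and 2 in GRP2/MP3 (Etv1 and Dusp6, 4.76%). For GRP3, batch 3 decided this count, since in batches 1, 2 and 4 the genes higher than NSC numbered 9, 10 and 8 of the 10, and in batch 3 they numbered 2. The share of all genes higher than NSC in a single batch was not computed, so these counts have no background beside them.

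**Figure D3:**
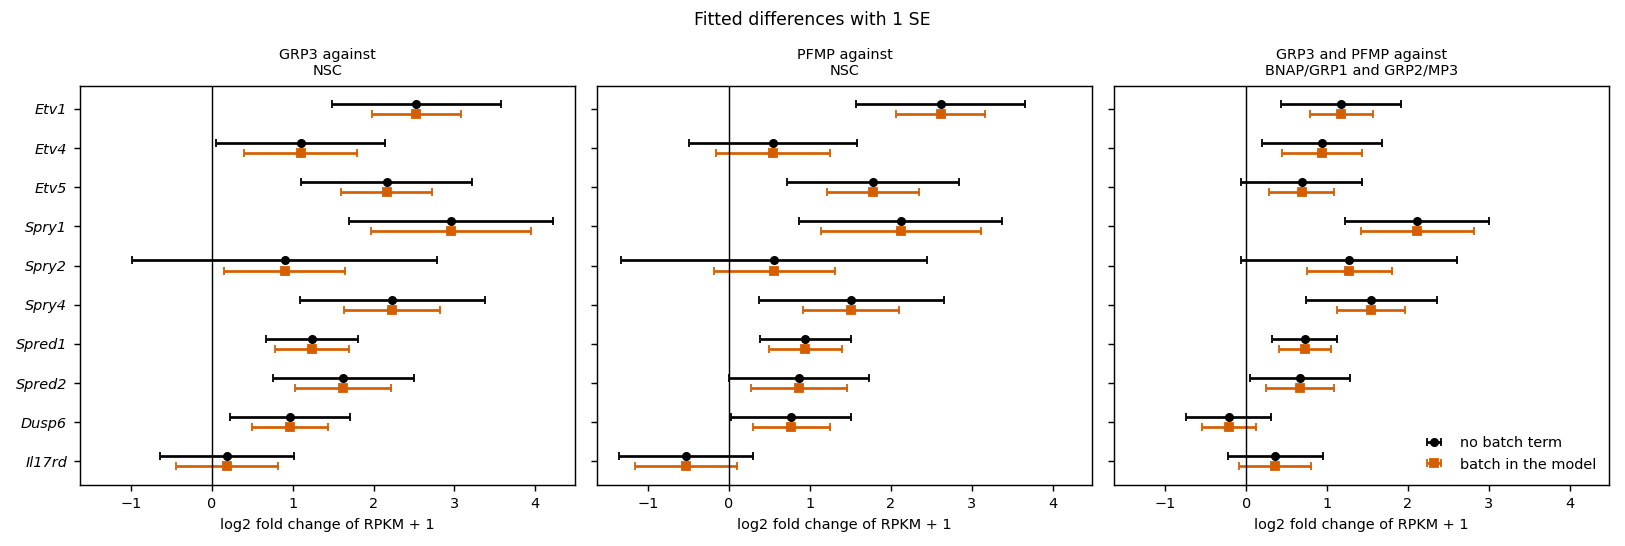
Fitted log2 fold change of RPKM + 1 with 1 SE for the 10 genes in 3 comparisons, from the model without a batch term (black circles) and with batch as a replicate block (orange squares). The points are the same in both models and the bars are shorter with the block, and Etv1, Etv5, Spry1 and Spry4 lie farthest to the right against NSC.

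GRP3 and PFMP share the CD140a+ gate, and set together against the CD140a- NG2+ pair, BNAP/GRP1 and GRP2/MP3, the largest difference was that of Spry1 (log2 fold change 2.11, 95% confidence interval 0.26 to 3.96), followed by Spry4 (1.55, -0.14 to 3.23), Spry2 (1.28, -1.51 to 4.06) and Etv1 (1.18, -0.37 to 2.72). With the block these intervals were 0.65 to 3.58 (Spry1), 0.67 to 2.43 (Spry4), 0.17 to 2.39 (Spry2) and 0.36 to 2.00 (Etv1). They are not adjusted for the number of genes tested. By limma 0 of the 10 passed without the block (background 0%) and 0 with it (0.442%). Without the block 1, Spry1, was higher at an unadjusted limma p under 0.05 (1.62%). Without batch 3 and with the block, Spry4 passed (2.10, limma adjusted p = 0.0198), beside a background of 1.15%. With library weights 3 of the 10 passed, Spry1 and Spry4 among them, beside 5.24%. Etv1, Spry2 and Spred1 were higher in all 4 batches (3 of the 10, background 7.01%). The size of the Spry1 difference was 4.79 in batch 1 and 3.71 in batch 2, and -0.03 and -0.01 in batches 3 and 4. The median of the 10 was 0.83, against -0.22 over all genes tested.

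Within each gate the populations differ in LeX. Between GRP3 and PFMP the 10 genes lay between -0.09 (Etv1) and 0.83 (Spry1), and between BNAP/GRP1 and GRP2/MP3 they lay between -0.98 (Spry1) and 0.59. By limma 0 of the 10 passed in either comparison (background 0% in both), and 0 were under an unadjusted p of 0.05. The 95% confidence interval of Spry1, the gene with the largest difference in size in both, was -1.78 to 3.45 between GRP3 and PFMP (-1.24 to 2.90 with the block) and -3.60 to 1.64 between BNAP/GRP1 and GRP2/MP3 (-3.05 to 1.09 with the block).

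The genes upstream and beside the 10 came from 6 lists of pathway genes. Among 13 tested receptors of growth factors, Pdgfra, whose product defines the CD140a gate, was at 512, 803, 3.41 and 171 RPKM in GRP3 and 658, 240, 3.84 and 96.9 in PFMP, and at no more than 24.1 RPKM elsewhere. With the block it was higher in GRP3 (log2 fold change 5.50, limma adjusted p = 0.00482), in PFMP (4.99, 0.0108) and in the CD140a+ pair (4.35, 0.0377), with limma adjusted p of 0.0609, 0.104 and 0.404 without the block. Fgfr2, an FGF receptor, was lower than in NSC with the block in GRP3 (-2.34, limma adjusted p = 0.00712), PFMP (-2.25, 0.00956) and GRP2/MP3 (-2.09, 0.0157). Its values were 31.3, 20.3, 3.25 and 20.4 RPKM in NSC and 2.95, 1.77, 0.369 and 5.31 in GRP3. Ntrk2, the BDNF receptor, was lower with the block in BNAP/GRP1 (-2.75, limma adjusted p = 0.0141) and GRP2/MP3 (-3.43, 0.00164). Pdgfrb, the PDGF receptor of pericytes, was lower in the CD140a+ pair with the block (-1.87, limma adjusted p = 0.0453), and the pericyte sums of GRP2/MP3, which moved with it, were not tested for their part in this.

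Among 17 tested ligands, Pdgfa, which encodes the PDGF-A chain that binds PDGFRα, passed without the block. It was at 128, 103, 33.5 and 78.5 RPKM in NSC, and lower in BNAP/GRP1 (11.0, 22.5, 16.6 and 10.9 RPKM, log2 fold change -2.32, limma adjusted p = 0.0376) and GRP2/MP3 (12.1, 11.1, 18.03 and 17.7 RPKM, -2.33, 0.0262). In GRP3 it was at 31.97, 28.6, 23.0 and 16.0 RPKM (-1.63, limma adjusted p = 0.261 without and 0.0635 with the block) and in PFMP at 27.8, 54.9, 19.9 and 13.7 RPKM (-1.55, 0.299 and 0.0796). The NSC library was the highest of the 5 in each batch, while the difference between the progenitors that passed and those that did not was not tested. The calls are 1 of 17 ligands in each comparison, beside a background of genes called lower of 0.76% and 1.12%. Igf1, an insulin-like growth factor that microglia make in large amounts, was lower in the CD140a+ pair with the block (-3.22, limma adjusted p = 0.0444) and moved with the microglial sums, whose part was not tested. The backgrounds of genes lower with the block were 2.33% in GRP3, 2.61% in PFMP, 2.91% in GRP2/MP3, 2.02% in BNAP/GRP1 and 0.999% in the CD140a+ pair.

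In the cascade itself, 1 of 24 tested genes passed in any of these 5 comparisons, Rps6ka1, an ERK-activated kinase, lower in the CD140a+ pair with the block (-1.92, limma adjusted p = 0.0415). Outside batch 3 it was at 8.96 to 24.7 RPKM in BNAP/GRP1 and GRP2/MP3 and at 0.305 to 4.12 RPKM in the other 3 populations, and it was at 22.99 to 27.6 RPKM in all 5 libraries of batch 3. The microglial sums moved with it, at 1908 to 2148 in the 5 libraries of batch 3, and their part was not tested. The other 19 tested ETS factors gave 3 calls in the same comparison, all lower with the block, Elk3 (-1.53, limma adjusted p = 0.0488), Fli1 (-2.14, 0.0415) and Spi1 (-2.70, 0.0377), of which Fli1 and Spi1 are known from blood, microglial or endothelial cells. Of the 12 other ERK-responsive genes tested, Flrt3, which binds FGF receptors, was higher in the CD140a+ pair with the block (1.93, limma adjusted p = 0.0415). Outside batch 3 Flrt3 was at 21.5 to 28.7 RPKM in GRP3 and PFMP and at 0.844 to 13.6 RPKM in the other 3 populations. In batch 3 it was at 46.7 to 53.3 RPKM in all 5 libraries. Of the 6 other ERK phosphatases, Dusp7, which like Dusp6 acts on ERK in the cytoplasm, was higher in BNAP/GRP1 with the block (2.19, limma adjusted p = 0.0406), at 28.5, 16.3, 16.1 and 20.5 RPKM against 1.77, 1.97, 11.3 and 3.28 in NSC. Without the block, the limma adjusted p of Dusp7 was 0.228 and that of Spi1 0.895, with the others named here in between. In GRP3 the median log2 fold change was 0.96 for the other ERK-responsive genes, 0.16 for the other ERK phosphatases and 0.09 for the cascade, against 0.05 for all genes tested.

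Over the 20 libraries, after the mean of each batch was taken out, the level of Spry4 followed that of Pdgfra with a Pearson r of 0.954. The r with Pdgfra was 0.864 for Spry1, 0.836 for Etv1, 0.812 for Spred1, 0.760 for Etv5, 0.736 for Spred2 and 0.664 for Etv4, and 0.441, 0.375 and 0.279 for Spry2, Il17rd and Dusp6. The libraries of a population share their gate, and CD140a sorting places Pdgfra in GRP3 and PFMP, so these values describe the libraries and are no test. Nor are they particular to Pdgfra: with Cspg4, the gene of NG2, the r was 0.881 for Spry1, 0.845 for Spry4, 0.814 for Spred1, 0.769 for Etv1, 0.768 for Etv5 and 0.690 for Etv4. With Egfr, the EGF receptor, it was 0.756 for Etv4. With Fgfr2 the r was -0.804 for Etv1 and -0.623 for Spry4. The 3 tested genes most like Spry4 by the same measure were Lhfpl3 (0.966), Grik1 (0.964) and Pcdh11x (0.9603), the first of which is on the OPC list. Those most like Etv1 were 2510009E07Rik (0.971), Tmem178 (0.950) and Nav3 (0.938), and those most like Etv5 were Amz1 (0.939), Alkbh1 (0.928) and Aldh1l2 (0.927). For Spry1 they were Trio (0.957), Farp1 (0.945) and 2610008E11Rik (0.942), and for Dusp6 Tnfrsf21 (0.955), Dock11 (0.910) and Frrs1 (0.906). For Etv4, Spry2, Spred1, Spred2 and Il17rd the most alike gene was Itfg2 (0.896), Nav2 (0.901), Gtf3c2 (0.944), Plxna2 (0.928) and Syde1 (0.942). Among the 10 themselves, Etv1 and Spred1 had an r of 0.887, while Dusp6 had 0.064 with Etv4 and 0.042 with Il17rd.

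**Figure D4:**
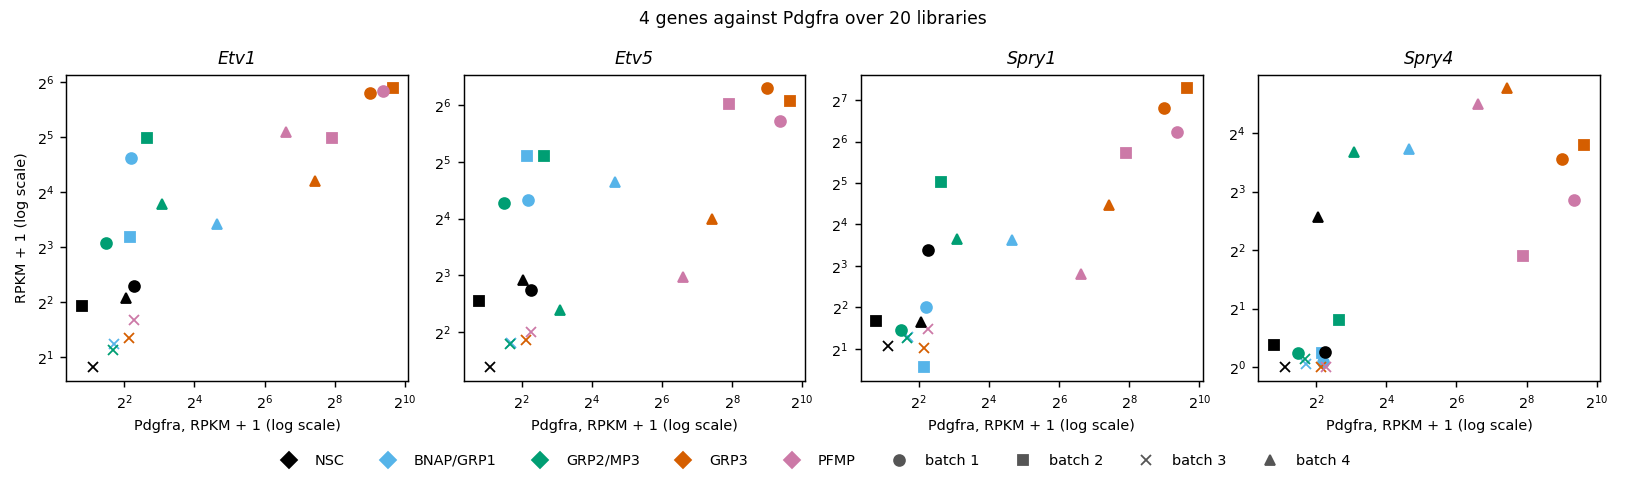
RPKM + 1 of Etv1, Etv5, Spry1 and Spry4 against that of Pdgfra, each on a log scale, in the 20 libraries, with colors for the populations and symbols for the batches. The GRP3 and PFMP libraries outside batch 3 are at the right, where Pdgfra is between 96.9 and 803 RPKM, and the batch 4 libraries of Spry4 lie above the others at the same Pdgfra level.

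Upstream sequence was at hand for 8 of the 10 genes, in 10 windows (RefSeq starts, GRCm38.p6, the 250 bases before the start). ETS factors bind a short core, GGAA or GGAT, which was not counted by itself. GGAAG, a longer string that holds GGAA, was read on both strands. It is in 6 of the 10 windows, from Dusp6, Etv1, Etv5, Il17rd, Spred1 and Spred2, against 64.1% of all 32851 windows in the table. The longer form CCGGAA is in 0 of the 10 (12% of all), and so is the AP-1 site TGANTCA (6.75%), while the GC box GGGCGG is in 5 (32.7%). A longer core CCGGAA and GGAAG can overlap by 4 bases. Spry1 and Dusp6 are shown because they lie at opposite ends of the CD140a comparison, chr3:37639697-37639946 (+ strand) and chr10:99262981-99263230 (+ strand). Capitals mark GGAAG or its complement CTTCC, which occurs 2 times in the Dusp6 window and 0 times in that of Spry1. The shorter GGAA also occurs in both windows and is not marked. A match of these letters is a description and not a binding site.
Spry1: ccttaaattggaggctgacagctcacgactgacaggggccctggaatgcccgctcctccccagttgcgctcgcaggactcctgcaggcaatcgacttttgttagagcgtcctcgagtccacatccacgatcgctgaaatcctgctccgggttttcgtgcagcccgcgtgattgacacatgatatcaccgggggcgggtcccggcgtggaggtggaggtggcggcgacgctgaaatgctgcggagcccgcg
Dusp6: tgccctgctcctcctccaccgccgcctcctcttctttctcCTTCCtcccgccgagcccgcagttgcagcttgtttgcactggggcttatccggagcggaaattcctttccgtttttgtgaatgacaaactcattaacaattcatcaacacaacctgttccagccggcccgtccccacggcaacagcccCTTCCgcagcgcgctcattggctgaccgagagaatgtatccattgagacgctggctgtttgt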

How the data were processed

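RNA from sorted cells was amplified from poly(A)+ RNA and sequenced on a NextSeq500. The study ran nf-core/rnaseq, and the submitters' processing notes name FastQC 0.11.9, cutadapt 3.4, STAR 2.6.1, Salmon 1.9.0, DESeq2 1.26.0 and GRCm38. The RPKM were made by the authors and deposited for 45705 genes in 20 libraries. The read totals, the gene lengths and the strand setting behind them are not given in the sources used here. A further 26 columns of the table hold no values.

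The values were taken as log2(RPKM + 1). The genes that reached 1 RPKM in 4 libraries or more were tested with limma 3.58.1 in R 4.3.3 (1 mean for each population, trended prior, two-sided, Benjamini-Hochberg adjustment over 27614 genes, threshold 0.05), and the script was tested on simulated data. Fold changes are on the log2(RPKM + 1) scale, which understates those of low genes. The labels name batches, so p-values measure the spread between pooled litters or batches. Within a batch the deviations from the population means correlated with a median r of 0.337, 0.262, 0.769 and 0.581 in batches 1 to 4 (lowest pair 0.0341). Between batches the median r was -0.254. Taking out the population means pulls that value below 0, so it is no neutral comparator.

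The alternatives were the replicate block, leaving out batch 3 with and without the block, leaving out each library, library weights (statmod 1.5.0), a pseudocount of 0.1, no filter, a mean of at least 5 RPKM, 2 other scalings, an untrended prior and a model of the compared populations alone. A single gene's fold change is printed where its size was at least 1 or where it was called with or without the block. From the pathway lists, the genes called in either fit are named, and for each of the 10 genes those most alike over the libraries. The 10 genes, the lists and the rules were chosen with earlier results of these data known. Positions are from GENCODE vM21 and upstream windows from RefSeq, both on GRCm38. Relative depth is the most common ratio of low values between 2 libraries, shared by 93 to 608 genes, and a read was called whole within 0.05. Figures used Python with matplotlib.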

Additional observations from a re-analysis of the deposited data

Results flagged for a closer look

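Of 50 sets of 4 libraries (10 genes in 5 populations), 5 held a library whose gap to its nearest neighbour on the log2(RPKM + 1) scale was above Dixon's critical share of the range at the 95% level, which chance alone passes in about 1 in 20. In 4 of the 5 it was the highest library, from batch 4: Etv4 in NSC at 23.7 RPKM (the others 0.123 to 0.741), Spry4 in NSC at 4.94 (0.00347 to 0.293), Spry4 in BNAP/GRP1 at 12.3 (0.0343 to 0.180) and Spry2 in GRP2/MP3 at 412 (2.04 to 5.91). In the last it was the lowest, Spred2 in the BNAP/GRP1 library of batch 3 at 0.582 RPKM (the others 6.09 to 7.52). The batch 4 libraries of NSC, BNAP/GRP1 and GRP2/MP3 also had 37856 to 38191 genes above 0, and the part of this was not tested.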

How the results depend on the processing

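The 19 fold changes of single genes that were followed were chosen for a size of at least 1 or a call. None changed sign under any alternative. By themselves the replicate block, the filters, the untrended prior and the model of the compared populations alone leave a fold change as it is. Those alternatives could not have changed a sign. The number of the 10 genes called in GRP3 against NSC was 0 without a batch term, 2 with the replicate block, 1 without batch 3, 3 without batch 3 and with the replicate block, and 7 with library weights. The calls over all genes, in either direction, were 290, 719, 491, 708 and 4885 in the same fits. In PFMP against NSC it was 1 with the replicate block, 1 without batch 3 and 1 with both changes, beside 771, 500 and 740 calls over all genes, against 316 without a batch term. In GRP3 and PFMP against BNAP/GRP1 and GRP2/MP3 it was 1 without batch 3 and with the replicate block, and 3 with library weights, beside 852 and 2501 calls over all genes, against 0 without a batch term. The block changed no other call of the 10. The counts for the other 4 comparisons stayed at 0 under all alternatives, and so did all counts when single libraries were left out, a fit that was run without the block. Leaving out single libraries moved Etv1 in GRP3 between 2.00 and 3.52, Spry1 between 2.16 and 4.25, and Etv4 between 0.657 and 2.14, the last without the NSC library of batch 4. For Spry2 in the CD140a+ pair it gave 0.478 without the GRP3 library of batch 4 and 2.08 without the GRP2/MP3 library of batch 4, against 1.28 with all libraries. In PFMP, Etv5 was 1.17 without the PFMP library of batch 2 and Spry1 was 1.40 without that of batch 1. Etv4 in GRP3 was 0.722 and 0.657 without the NSC libraries of batches 1 and 3 and 0.670 without the GRP3 library of batch 1, and was 1.91 without the GRP3 library of batch 3, and Spry2 in the CD140a+ pair was 0.749 without the PFMP library of batch 4. The cause of these moves was not tested. Depth is known only as a ratio between libraries, so no counting error was attached to the RPKM.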
